A study of Mus musculus with 6 samples.

Results

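The 10 genes of G protein-coupled receptor signalling in γδ T cells described here were chosen by gene symbol. They are 7 genes of regulators of G protein signalling (RGS proteins), Rgs1, Rgs2, Rgs3, Rgs10, Rgs14, Rgs16 and Rgs19, and the receptor genes Gpr183, Gpr18 and Ltb4r1. All 10 had a row among the 19390 gene symbols of the count table, and all 10 had enough counts to be tested. RNA was sequenced from splenic γδ T cells of mice aged 6 weeks, purified on a flow cytometer. The 3 libraries labelled WT were taken as USF3-f/f, mice with floxed Usf3 alleles, and the 3 labelled KO as USF3-f/f; CD2-cre, which also carry a Cre transgene under CD2 control, active in lymphoid cells at large and not in γδ T cells alone. Only the KO-labelled mice carried Cre, so the transgene and the deletion cannot be told apart in this comparison. The labels do not say whether the 3 libraries of a label came from separate mice, so the p-values measure only the spread between these libraries.

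G protein-coupled receptors switch on heterotrimeric G proteins by making their α subunit bind GTP. RGS proteins speed the return of the α subunit to its GDP-bound state and so shorten the signal, and in lymphocytes they are known as brakes on migration towards chemokines. GPR183 (EBI2) senses oxysterols, oxidised forms of cholesterol, and positions lymphocytes within the spleen and lymph nodes. LTB4R1 (BLT1) is the high-affinity receptor of leukotriene B4, a lipid attractant of inflamed tissue, and GPR18 is a lipid-responsive receptor whose ligand is debated and which is known in intraepithelial T cells.

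Libraries held 34644862 to 35806402 deposited counts, and 12810 genes were tested. The targeted gene, Usf3, was at 70.2, 72.7 and 73.8 CPM (counts relative to library size, scaled by TMM) in WT replicates 1 to 3 and at 72.0, 65.9 and 67.5 in KO replicates 1 to 3. It did not pass the test (edgeR adjusted p = 0.261). The floxed part of the gene is not named in the labels, so this count does not check them, and the libraries go by their labels throughout. The T cell genes Cd3d, Cd3e and Cd3g stood at means of 286, 346 and 382 CPM in WT and 263, 328 and 340 in KO, and all 3 were called lower (edgeR adjusted p = 0.00287, 0.0364 and 5.91e-05). Of the 7 genes listed as γδ T cell markers and tested, 5 were called lower, where 17.3% of all tested genes were called in either direction. They were the 3 Cd3 genes, which mark T cells and not γδ T cells alone, and Blk and Maf (log2 fold changes -1.15 and -0.62). Sox13 and Zbtb16 did not pass and went opposite ways (log2 fold changes -0.43 and 1.07, edgeR adjusted p = 0.102 and 0.0997). The 7 summed to 1027 to 1038 CPM in WT and 920.3 to 961 in KO, nearly all of it from the Cd3 genes. The γδ receptor constant-region genes were also listed as markers but had no row, so they were not analysed here. The 11 B cell markers with a row summed to 7.68 to 7.96 CPM in WT and 6.34 to 8.94 in KO, and the 4 neutrophil markers to at most 0.144 in any library. Other marker sums did not overlap between labels. The 7 NK and innate lymphoid markers summed to 161 to 174 CPM in WT and 146 to 153 in KO, with Ncr1, Fcer1g and Il1rl1 among 5 tested called lower. Klrb1c, the most abundant of them, and Tyrobp did not pass. Klrb1c went the other way, from a mean of 73.8 CPM in WT to 76.3 in KO, while Fcer1g went from 66.7 to 51.2. Of 6 αβ T cell markers listed, 3 had a row, and the αβ receptor constant-region genes had none. The 3 summed to 29.9 to 31.5 CPM in WT and 25.9 to 27.0 in KO, with Foxp3 called lower, from a mean of 12.3 to 8.31. Cd8b1, the largest part of the sum, was at 18.1 CPM in WT and 17.8 in KO. Cd4 was at 0.522 and 0.463, and neither of them passed. The 5 erythroid and platelet markers with a row summed to 0.920 to 1.01 CPM in WT and 1.28 to 1.73 in KO, with none called. The part of these shifts in the results was not tested. The KO-labelled libraries differed among themselves more than the WT-labelled ones, with a chi-square of counts over its degrees of freedom of 3.55 to 6.94, highest between replicates 2 and 3, against 3.22 to 3.26.

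The stretches upstream of Rgs16, Ltb4r1 and Gpr18 are shown because these genes had the 3 largest changes of the set. Each is the 250 bases before the start site, 5′ to 3′, from RefSeq's table for GRCm38.p6, an older build than the GRCm39 that the submitters' processing notes name. Capitals mark a motif match.
Rgs16, chr1:153740103-153740352, plus strand: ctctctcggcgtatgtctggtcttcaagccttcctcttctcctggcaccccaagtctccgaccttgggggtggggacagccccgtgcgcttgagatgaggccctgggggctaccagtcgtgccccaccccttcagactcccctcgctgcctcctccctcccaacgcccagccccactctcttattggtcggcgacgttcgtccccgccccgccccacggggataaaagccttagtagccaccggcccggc
Ltb4r1, chr14:55765712-55765961, plus strand: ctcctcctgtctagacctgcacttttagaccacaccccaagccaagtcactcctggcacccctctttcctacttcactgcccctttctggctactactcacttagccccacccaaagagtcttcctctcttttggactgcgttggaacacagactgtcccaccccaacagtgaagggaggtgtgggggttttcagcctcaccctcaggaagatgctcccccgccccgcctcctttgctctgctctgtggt
Gpr18, chr14:121915889-121916138, minus strand: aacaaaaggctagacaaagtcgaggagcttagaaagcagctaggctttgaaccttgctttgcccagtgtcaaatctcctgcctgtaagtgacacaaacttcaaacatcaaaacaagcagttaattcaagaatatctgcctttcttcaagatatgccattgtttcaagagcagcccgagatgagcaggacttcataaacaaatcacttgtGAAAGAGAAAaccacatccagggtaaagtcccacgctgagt
The motifs searched on both strands were the E-box CACGTG, to which USF proteins are known to bind, the core of the interferon-response element, taken as a pair of GAAA sites 2 bases apart, the cAMP-response element TGACGTCA and the AP-1 site TGANTCA. In the Gpr18 stretch GAAAGAGAAA matched the interferon-response core, at 41 to 32 bases before the start. That core was found in 2.98% of all 32851 promoter entries, the E-box in 6.02%, the cAMP-response element in 1.55% and the AP-1 site in 6.75%. The table held 11 entries for 8 members and none for Rgs1 and Rgs14. The Gpr18 match was the only match of these 4 motifs in the 11 entries, which says only that the other letters are not in these windows.

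Of the 10 genes, 3 rose and 4 fell in KO-labelled cells, at an adjusted p under 0.05 over all tested genes (edgeR quasi-likelihood test). Rgs16 doubled in level, Rgs10 rose by 30.5% and Rgs19 by 8.87%, while Ltb4r1 fell by 60.2%, Gpr18 by 26.5%, Rgs2 by 11.3% and Rgs3 by 8.88%. Rgs1, Rgs14 and Gpr183 did not pass. Among all tested genes 17.3% were called, 7.23% higher and 10.1% lower, and among the 9579 with at least the mean level of Ltb4r1 21.2% were called. The members were chosen with earlier results of these data known, so their share is a description. Libraries of the 2 labels did not overlap in 9 of the 10 genes, Rgs1 being the exception, beside 32.1% of all tested genes. The median log2 fold change was -0.050 over the 10 genes and 0.0014 over all tested genes, and the median of its absolute size 0.16 and 0.097. In bulk samples, fewer cells of a type and less RNA per cell cannot be told apart.

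**Figure D1:**
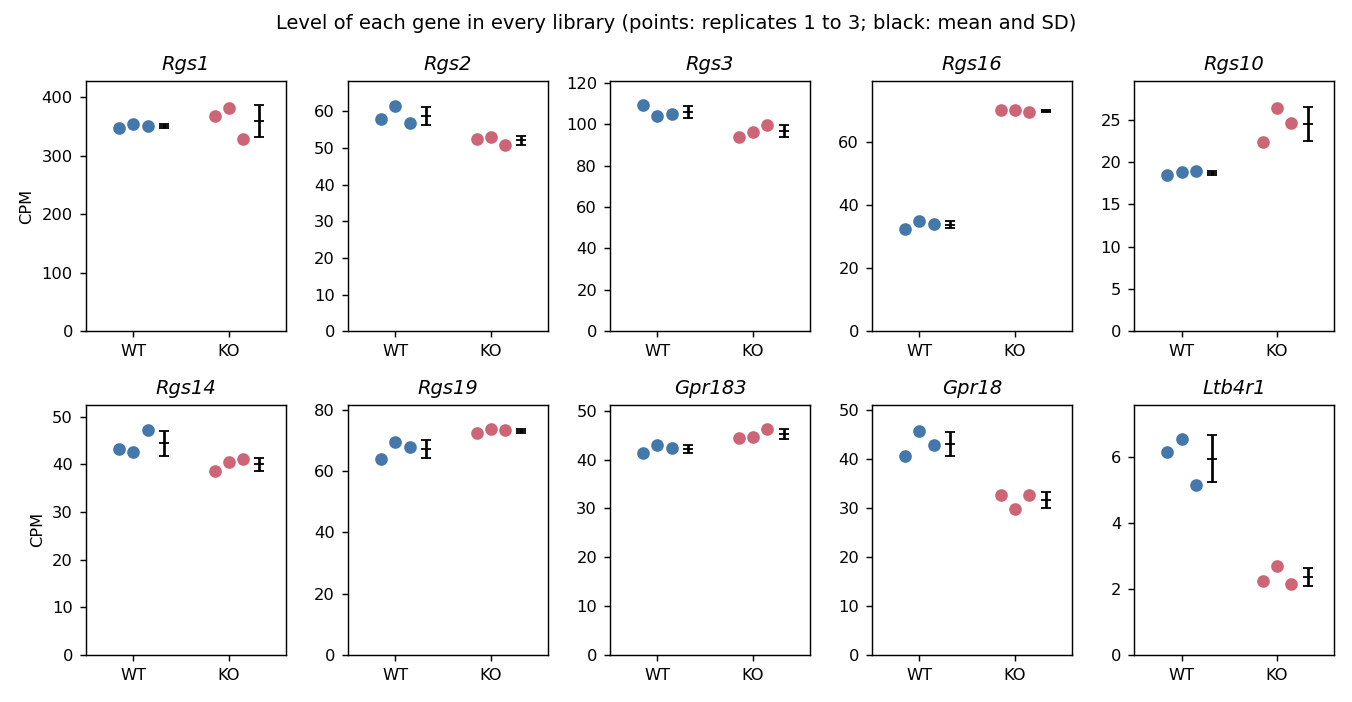
CPM (vertical axes, each from 0) of the 10 genes in the WT-labelled and KO-labelled libraries, 1 point per library in the order of replicates 1 to 3, with the mean and SD (n = 3) in black. Rgs16 sits between 32.4 and 34.9 in WT and between 69.3 and 70.0 in KO, Ltb4r1 lies lower in every KO library, and the Rgs1 points overlap.

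Rgs16 belongs to the R4 subfamily, small RGS proteins that consist of little more than the RGS domain, and is known to be induced on T cell activation and to limit chemokine-driven migration. It stood at 32.4, 34.9 and 34.0 CPM in WT replicates 1, 2 and 3 and at 70.0, 70.0 and 69.3 in KO replicates 1, 2 and 3. Every KO library was about 2 times as high as every WT library, and the KO libraries lay within 1 CPM of each other. Their spread of 0.531% (coefficient of variation) was below the 2.02% that counting error alone gives, so it does not measure how steady the level is. The log2 fold change was 1.05 ± 0.046 (SE), a 2.07-fold rise with a 95% interval from 93.3% to 121% (edgeR adjusted p = 8.48e-14). The rise held in all 18 alternatives tried, with log2 fold changes from 1.01 to 1.07.

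Of the other R4 genes in this set of members, Rgs2 and Rgs3 fell and Rgs1 did not pass. Rgs1, an R4 member abundant in tissue-resident and activated lymphocytes and a known inhibitor of their exit, stood at 347, 355 and 350 CPM in WT replicates 1 to 3 and at 367, 381 and 329 in KO replicates 1 to 3. KO replicates 1 and 2 lay above all WT libraries and KO replicate 3 below them, so the labels overlapped. Its log2 fold change was 0.035 ± 0.036 (SE), with a 95% interval from -2.75% to 7.89% (edgeR adjusted p = 0.582). The KO-labelled libraries spread by 7.48% (coefficient of variation), where counting error alone gives 0.889%, and the WT-labelled ones by 1.08%, where it gives 0.900%. Without KO replicate 3 Rgs1 was called higher, at 0.094 (edgeR adjusted p = 0.00373), and without KO replicate 2 its sign turned, at -0.0095 (adjusted p = 0.893).

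Rgs2, whose protein prefers Gq α subunits, was at 58.0, 61.5 and 56.7 CPM in WT replicates 1 to 3 and at 52.5, 52.9 and 50.8 in KO replicates 1 to 3. All KO libraries were lower than all WT libraries. Rgs2 changed by -0.17 ± 0.046 on the log2 scale (SE, edgeR adjusted p = 0.00932), and the call was lost without WT replicate 2, the highest library (adjusted p = 0.0801). Rgs3, an R4 gene that also makes longer proteins with further domains, was at 109, 104 and 105 CPM in WT replicates 1 to 3 and at 93.8, 96.4 and 99.7 in KO replicates 1 to 3. These libraries did not overlap either, and the log2 fold change was -0.13 ± 0.037 (SE, edgeR adjusted p = 0.0135). The Rgs3 call was lost without WT replicate 1 (adjusted p = 0.0994) or KO replicate 1 (adjusted p = 0.0924), and on log2 FPKM with either pseudocount (adjusted p = 0.104 and 0.105). Counts over a whole gene do not separate the Rgs3 isoforms.

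Of the R12 subfamily genes in this set of members, Rgs10 rose and Rgs14 did not pass. Rgs10, a small protein that acts on Gi α subunits, stood at 18.5, 18.8 and 18.9 CPM in WT replicates 1 to 3 and at 22.4, 26.4 and 24.6 in KO replicates 1 to 3. The KO-labelled libraries all lay higher but spread by 8.29%, beyond the 3.40% of counting error, with replicate 2 highest. Rgs10 changed by 0.38 ± 0.071 on the log2 scale (SE, edgeR adjusted p = 0.000364), and it was called in all 18 alternatives (0.32 to 0.44). Rgs14, a larger scaffold that also binds Ras-family GTPases and inactive Gi α subunits, stood at 43.1, 42.7 and 47.3 CPM in WT replicates 1 to 3 and at 38.5, 40.4 and 41.2 in KO replicates 1 to 3. All KO libraries were lower, but the log2 fold change of -0.15 ± 0.053 (SE) did not pass (edgeR adjusted p = 0.0566). It did pass without KO replicate 3 (adjusted p = 0.0352) and with a robust fit (adjusted p = 0.0462). The level of Rgs10 per unit of length was 0.754 ± 0.036 times that of Rgs14 in WT-labelled libraries and 1.09 ± 0.068 times in KO-labelled ones (SD, n = 3 each). An exact two-sided permutation test of the log2 ratio gave p = 0.1, the smallest that 3 against 3 libraries allow, for this ratio and for 2 others given below (0.1 also after adjustment over the 3). In each of these ratios the libraries of the 2 genes already lay apart in opposite directions. The ratio therefore had to separate the labels, and its p was fixed beforehand and adds nothing to the tests of the genes.

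Rgs19 (GAIP), of the RZ subfamily, whose members carry a cysteine-rich string that is palmitoylated, was at 64.0, 69.6 and 67.7 CPM in WT replicates 1 to 3 and at 72.3, 73.6 and 73.2 in KO replicates 1 to 3. The KO libraries lay above the WT libraries. The log2 fold change of 0.12 ± 0.042 (SE) passed narrowly (edgeR adjusted p = 0.0471), and the call was lost in 7 of 18 alternatives. These were DESeq2 (adjusted p = 0.0664), the replicate block (adjusted p = 0.0632) and the fits without WT replicate 1 (0.225), WT replicate 3 (0.0850), KO replicate 1 (0.0905), KO replicate 2 (0.0869) or KO replicate 3 (0.0609). The direction was the same in all 18.

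**Figure D2:**
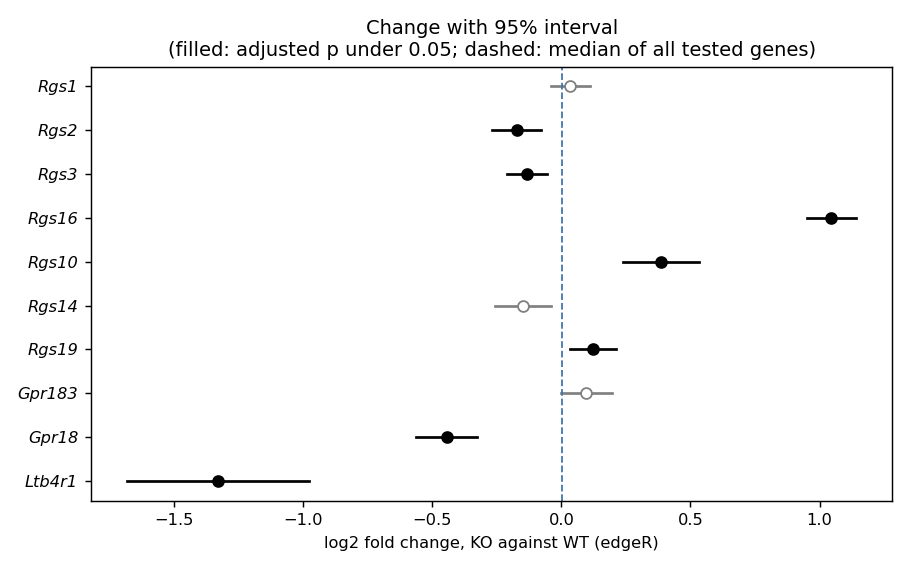
Log2 fold change, KO against WT, of the 10 genes (horizontal axis) with its 95% interval (lines, edgeR), filled where the adjusted p was under 0.05; the dashed line is the median of all tested genes. Rgs16 at 1.05 and Ltb4r1 at -1.33 lie farthest from it, and the intervals of Rgs1 and Gpr183 include 0.

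Of the receptors, Ltb4r1 fell most. Its counts were 219, 227 and 181 in WT replicates 1 to 3 and 79, 96 and 75 in KO replicates 1 to 3, or 6.15, 6.53 and 5.15 CPM against 2.25, 2.68 and 2.16. The highest KO library was well below the lowest WT library. On the log2 scale it changed by -1.33 ± 0.17 (SE), which puts WT 2.51 times above KO, and the 95% interval spans falls of 49.2% to 68.8% (edgeR adjusted p = 3.35e-06). It was called in all 18 alternatives, from -1.43 to -0.95, the smallest on log2 FPKM with a pseudocount of 1, which understates the change of low genes. Ltb4r1 had the fewest counts of the set, so counting error alone would spread its libraries by 6.92% in WT and 11.0% in KO, beside 12.0% and 11.9% measured. Its near neighbour and relative Ltb4r2, the low-affinity leukotriene B4 receptor gene, had too few counts to be tested. Myeloid cells also carry BLT1, and the 10 monocyte and macrophage markers with a row summed to 7.31 to 9.92 CPM in WT and 6.06 to 6.77 in KO. Nearly all of that sum was Cd68, at a mean of 8.36 CPM in WT and 6.20 in KO, and the macrophage-defining Adgre1, C1qa and C1qb had at most 1 count in any library. Of the 5 dendritic cell markers with a row, summing to 8.08 to 8.82 CPM in WT and 3.55 to 4.89 in KO, the integrin gene Itgax made up most of the sum and fell, by 1.62 on the log2 scale. The other 4 did not pass or had too few counts to be tested, and went both ways: Xcr1 was at 0.282 CPM in WT and 0.769 in KO, Zbtb46 at 0.624 and 0.823, Flt3 at 0.0096 and 0.074, and Clec10a at 0.218 and 0.019. The part of such cells in the fall of Ltb4r1 was not tested.

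Gpr18 was at 40.6, 45.6 and 42.9 CPM in WT replicates 1 to 3 and at 32.6, 29.8 and 32.5 in KO replicates 1 to 3. All KO libraries lay lower, and the labels were apart by more than the spread within either. The change was -0.44 ± 0.057 on the log2 scale (SE), or 26.5% less, with 20.2% and 32.3% as the limits of the 95% interval (edgeR adjusted p = 3.70e-06), and it was called in all 18 alternatives. Gpr183, the oxysterol receptor gene, was at 41.3, 42.9 and 42.4 CPM in WT replicates 1 to 3 and at 44.5, 44.6 and 46.3 in KO replicates 1 to 3. The KO libraries lay above the WT libraries by a small margin. The log2 fold change of 0.097 ± 0.048 (SE) did not pass (edgeR adjusted p = 0.185), with a 95% interval from -0.138% to 14.6%, and it passed in none of the 18 alternatives (adjusted p from 0.0825 to 0.382).

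Gpr18 and Gpr183 are neighbours, and both lie inside Ubac2, a gene of endoplasmic reticulum protein quality control, on the opposite strand. In the GENCODE annotation of GRCm38 their exons, 1498 and 2887 bases, share 0 bases with the exons of Ubac2. The sources used here do not give whether the counts used strand, so reads from unspliced Ubac2 RNA cannot be told from those of the receptors. Ubac2 itself went from 96.7 to 86.5 CPM (log2 fold change -0.16 ± 0.039, SE, edgeR adjusted p = 0.00545), a call lost without WT replicate 1 (adjusted p = 0.0623). The level of Gpr183 per unit of length was 0.472, 0.437 and 0.460 times that of Gpr18 in WT replicates 1 to 3 and 0.635, 0.696 and 0.662 times in KO replicates 1 to 3. The ratios could not overlap between labels, since all KO libraries were higher for Gpr183 and lower for Gpr18. Their log2 difference was 0.54 (exact two-sided permutation p = 0.1, the smallest possible and fixed by this separation). Dock9, on the other side of Gpr18, and Gm46485, which overlaps it, did not pass (log2 fold changes 0.068 and -0.56, edgeR adjusted p = 0.370 and 0.215).

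Rgs8, an RGS gene next to Rgs16, went from 7.95 to 9.94 CPM (log2 fold change 0.32 ± 0.10, SE, edgeR adjusted p = 0.0303). The Rgs8 call was lost without WT replicate 1 (adjusted p = 0.0994), WT replicate 3 (0.0873), KO replicate 1 (0.0553) or KO replicate 2 (0.0781), by DESeq2 (0.0554) and on log2 FPKM with pseudocounts of 0.1 and 1 (0.0864 and 0.0848). Beside the other RGS genes, these neighbours of at least 1 CPM did not pass: Uchl5 beside Rgs2, Rusf1 and Tial1 beside Rgs10, Lman2 beside Rgs14 and Tcea2 beside Rgs19, with log2 fold changes between -0.013 and 0.060.

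Levels of different genes were compared by the deposited FPKM, which divides counts by library total and gene length. Rgs1 was by far the most abundant, at 259 ± 2.57 FPKM in WT and 267 ± 19.7 in KO (SD over 3 libraries). It made up 72.0% to 72.5% of the FPKM of the 7 RGS genes in WT libraries and 67.6% to 70.4% in KO libraries. In WT it was followed by Gpr18 at 30.1 ± 1.70 FPKM, Rgs19 at 24.9 ± 1.01, Rgs2 at 19.4 ± 0.838 and Rgs14 at 18.1 ± 0.991. Next came Rgs16 at 14.4 ± 0.504, Gpr183 at 13.7 ± 0.249, Rgs10 at 13.6 ± 0.116, Rgs3 at 8.94 ± 0.255 and Ltb4r1 at 4.06 ± 0.494. Within this order the ranges of Rgs2 and Rgs14, of Rgs16 and Gpr183, and of Gpr183 and Rgs10 overlapped, so these neighbours were not separated.

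In KO-labelled libraries Rgs16 moved from sixth to second place, at 30.0 ± 0.166 FPKM, ahead of Rgs19 at 27.3 ± 0.176 and Gpr18 at 22.3 ± 1.19 (SD, n = 3 each). Rgs10 at 17.9 ± 1.44 and Rgs2 at 17.4 ± 0.369 overlapped and were followed by Rgs14 at 16.4 ± 0.542, Gpr183 at 14.8 ± 0.343, Rgs3 at 8.20 ± 0.245 and Ltb4r1 at 1.62 ± 0.188. The share of Rgs16 in the summed FPKM of the 7 RGS genes went from between 3.92% and 4.11% in WT to between 7.47% and 8.23% in KO. Relative to Rgs2, another R4 gene, its level per length was 0.742 ± 0.028 in WT and 1.73 ± 0.030 in KO (exact two-sided permutation p = 0.1, the smallest possible). That p was fixed beforehand too, since all KO libraries were higher for Rgs16 and lower for Rgs2. The summed level of the 7 RGS genes was 672 to 686 CPM in WT and 688 to 741 in KO.

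**Figure D3:**
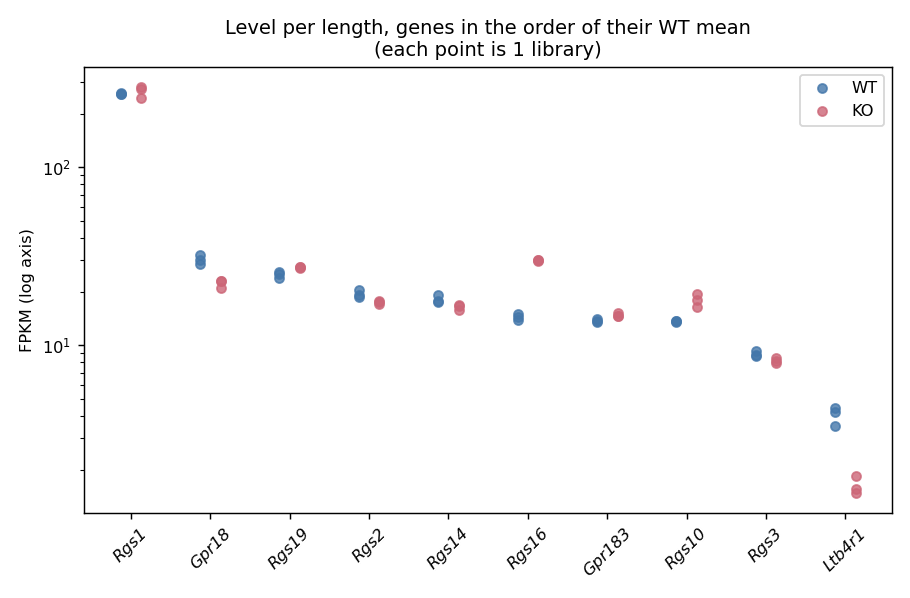
Deposited FPKM (log axis) of the 10 genes in each library, ordered by the WT mean; blue points are the 3 WT-labelled and red points the 3 KO-labelled libraries. Rgs1 stands near 260 in both, Rgs16 moves from near 14 to 30.0, and Ltb4r1 is lowest in both.

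Among the other RGS genes, 8 of 17 listed were tested, and 1 rose and 2 fell, with a median log2 fold change of -0.17. That is 37.5% called, beside 17.3% of all tested genes. With 1 library left out, 0 to 1 were called higher and 1 to 2 lower. Rgs11, of the R7 subfamily, went from 8.66 to 6.07 CPM (-0.51 ± 0.13, SE, edgeR adjusted p = 0.00853), a call lost without WT replicate 1 (0.0721) or WT replicate 2 (0.0587). Snx13, a sorting nexin gene with an RGS domain, went from 35.3 to 29.9 CPM (-0.24 ± 0.055, adjusted p = 0.00303) and held in all 18 alternatives. The third was Rgs8, described with Rgs16. Rgs18, Rgs12, Rgs9, Axin1 and Axin2 did not pass.

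Of 19 tested genes of G protein subunits, on whose α class RGS proteins act, 1 rose and 3 fell, and the median change was 0.014 on the log2 scale. The share called, 21.1%, was near the 17.3% of all tested genes. The β subunit gene Gnb4 went from 17.9 to 12.2 CPM (-0.56 ± 0.079, SE, edgeR adjusted p = 1.37e-05), the γ subunit gene Gng2 from 133 to 109 CPM (-0.28 ± 0.034, adjusted p = 1.92e-06), and Gna15, a Gq-class α subunit gene of blood cells, from 12.7 to 9.07 CPM (-0.49 ± 0.097, adjusted p = 0.000757). These 3 calls held in all 18 alternatives. Gnai2, the main Gi α subunit gene of lymphocytes, went from 798 to 835 CPM (0.066 ± 0.021, adjusted p = 0.0287), and its call was lost without WT replicate 1 (0.109), WT replicate 2 (0.0678) or KO replicate 1 (0.0755). The count called higher was 0 without WT replicate 2 or KO replicate 1, and 2 without KO replicate 2, where Gna12 passed, or without KO replicate 3, where Gnai3 passed. In the fit of all libraries Gnai3, Gnas, Gnb1, Gnb2, Gna13 and Gnaq did not pass.

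Of 15 tested genes of receptor kinases, arrestins, and proteins that exchange or guard the G protein nucleotide, 4 fell (2 without KO replicate 1). The share called was 26.7%, beside 17.3% of all tested genes and 21.2% of those with at least the mean level of Ltb4r1. The median log2 fold change was -0.026. The β-arrestin gene Arrb1 went from 59.3 to 48.0 CPM (-0.31 ± 0.055, SE, edgeR adjusted p = 0.000279) and the receptor kinase gene Grk6 from 312 to 283 CPM (-0.14 ± 0.027, adjusted p = 0.000377), both in all 18 alternatives. Gpsm3, which holds Gi α subunits in their GDP-bound form, changed by -0.16 (adjusted p = 0.00667, and 0.0596 without KO replicate 1). Gpsm2, of the same kind, changed by -0.13 (adjusted p = 0.0336), a call lost without WT replicate 1 (0.0774), WT replicate 3 (0.176) or KO replicate 1 (0.150), with the replicate block (0.0553), by DESeq2 (0.0535) and on log2 FPKM (0.0533 with either pseudocount). No gene of this list was called higher by edgeR, DESeq2 or limma-voom, and 0 were higher at an unadjusted p under 0.05. Arrb2 and Grk2, at 192 and 454 CPM in WT, did not pass.

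Effectors below the G proteins were mixed, with 3 of 19 higher and 5 lower and a median of -0.017. Together 42.1% were called, beside 17.3% of all tested genes. The count called higher was 0 without WT replicate 1 and 1 without KO replicate 2, the count called lower was 3 without WT replicate 2, and on log2 FPKM with either pseudocount 1 was higher and 3 were lower. Of the phosphodiesterase genes, whose products break down cyclic AMP, Pde3b went from 222 to 166 CPM (-0.42 ± 0.030, SE, edgeR adjusted p = 3.27e-10) and Pde7a changed by -0.21 (adjusted p = 0.000346), both in all 18 alternatives. In the other direction, Pde4d and Pde4b changed by 0.15 and 0.17 (adjusted p = 0.00945 and 0.0261). The Pde4d call was lost without WT replicate 1 (0.0545) and on log2 FPKM with pseudocounts of 0.1 and 1 (0.204 and 0.200). The Pde4b call was lost without WT replicate 1 (0.0938), WT replicate 2 (0.127) or KO replicate 2 (0.0944) and on log2 FPKM (0.0656 and 0.0660). Dock2, the Rac exchange factor gene of lymphocyte migration, changed by -0.098 (adjusted p = 0.00319) in all 18 alternatives. Plcb2, a phospholipase gene, changed by -0.21 (adjusted p = 0.00858; 0.0617 without WT replicate 1, 0.0739 without WT replicate 2 and 0.0794 on log2 FPKM with either pseudocount). The adenylyl cyclase gene Adcy7 changed by -0.091 (adjusted p = 0.0308) and the protein kinase A gene Prkaca by 0.16 (adjusted p = 0.0144). The Adcy7 call was lost without WT replicate 2 (0.237), WT replicate 3 (0.0646) or KO replicate 1 (0.0915), by upper-quartile or total count scaling (0.0588 and 0.0517) and on log2 FPKM (0.131 and 0.130). The Prkaca call was lost without WT replicate 1 (0.0698), WT replicate 3 (0.0647), KO replicate 1 (0.0502) or KO replicate 2 (0.0635).

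**Figure D4:**
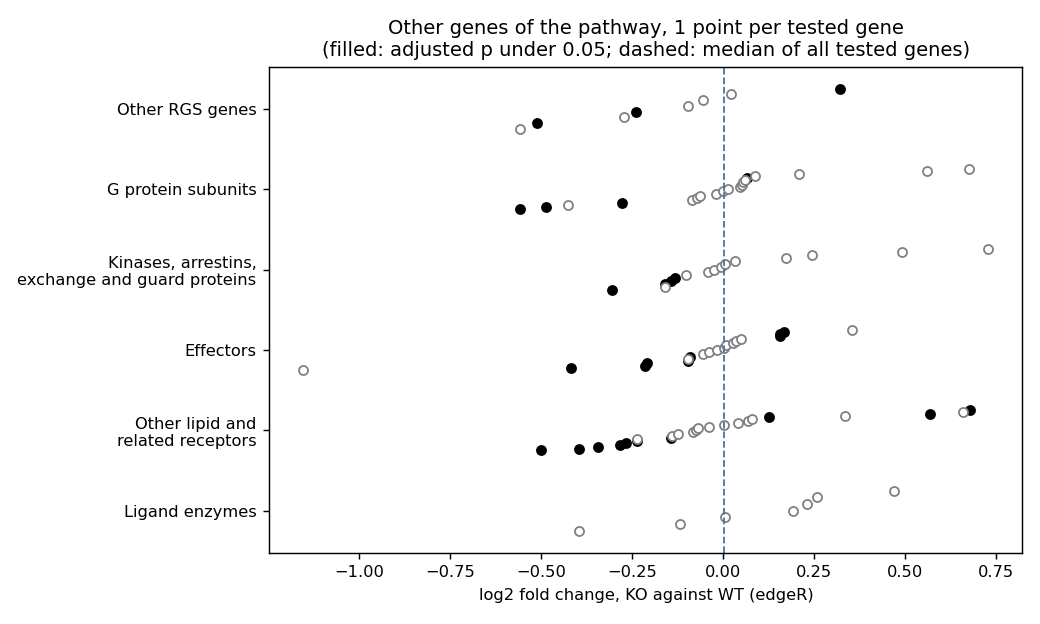
Log2 fold change, KO against WT (horizontal axis, edgeR), of each tested gene in 6 lists of the same signalling pathway, 1 point per gene, filled where the adjusted p was under 0.05; the dashed line is the median of all tested genes. The receptor list holds 3 filled points to the right and 7 to the left, and the ligand enzymes none in this fit.

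Other receptors for lipids moved in both directions, with 3 of 23 tested genes higher and 7 lower and a median of -0.074. In both directions together 43.5% were called, beside 17.3% of all tested genes. With 1 library left out, 2 to 4 were higher and 3 to 7 lower, the fewest lower without WT replicate 2. The acid-sensing receptor gene Gpr65, also in the list, went from 81.0 to 57.2 CPM (-0.50 ± 0.044, SE, edgeR adjusted p = 8.66e-09). Gpr174, a lysophosphatidylserine receptor gene, went from 29.0 to 43.0 CPM (0.57 ± 0.064, adjusted p = 5.93e-07), while Gpr34, for the same class of ligand, changed by -0.24 (adjusted p = 0.0140). The cannabinoid receptor gene Cnr2 went from 10.5 to 16.9 CPM (0.68 ± 0.084, adjusted p = 2.09e-06). Cysltr2, a cysteinyl leukotriene receptor gene, changed by -0.35 (adjusted p = 6.39e-05) and Gpr55, a lysophosphatidylinositol receptor gene, by -0.27 (adjusted p = 0.000153). The calls of Gpr65, Gpr174, Cnr2, Cysltr2 and Gpr55 held in all 18 alternatives.

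The calls of 4 further receptors depended on which libraries were kept and, for 3 of them, on the method. The Gpr34 call was lost without WT replicate 2 (edgeR adjusted p = 0.0765), WT replicate 3 (0.0676) or KO replicate 3 (0.0843), and on log2 FPKM with pseudocounts of 0.1 and 1 (0.102 and 0.10). Lpar6, a lysophosphatidic acid receptor gene, changed by -0.40 (adjusted p = 0.0154), and its call was lost without WT replicate 1 (0.146), WT replicate 2 (0.0637) or KO replicate 2 (0.0502), and on log2 FPKM (0.0582 with either pseudocount). Ptger4, a prostaglandin E2 receptor gene, changed by 0.13 (adjusted p = 0.0220; 0.0781 without WT replicate 2, 0.0696 without WT replicate 3 and 0.0883 without KO replicate 1). The thromboxane receptor gene Tbxa2r changed by -0.28 (adjusted p = 0.0358; 0.170, 0.132, 0.0731 and 0.112 without WT replicate 1, WT replicate 2, KO replicate 1 and KO replicate 3, and 0.0695 by DESeq2).

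The enzymes that make or remove the ligands gave no call in counts. Of 14 listed genes 7 had enough counts to be tested, and 0 passed by edgeR, DESeq2 or limma-voom, with 1 higher and 1 lower at an unadjusted p under 0.05. On log2 FPKM with pseudocounts of 0.1 and 1, limma called 1 of them higher: Ptgr1, whose product inactivates leukotriene B4, named after its values were seen (adjusted p = 0.0393 and 0.0389, against 0.104 by edgeR). Lta4h, whose product makes leukotriene B4, was at 201 CPM in both labels (log2 fold change 0.0036, edgeR adjusted p = 0.956). Hsd3b7, whose product inactivates the GPR183 ligand, was at 1.44 CPM in WT and 1.65 in KO (adjusted p = 0.715).

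**Figure D5:**
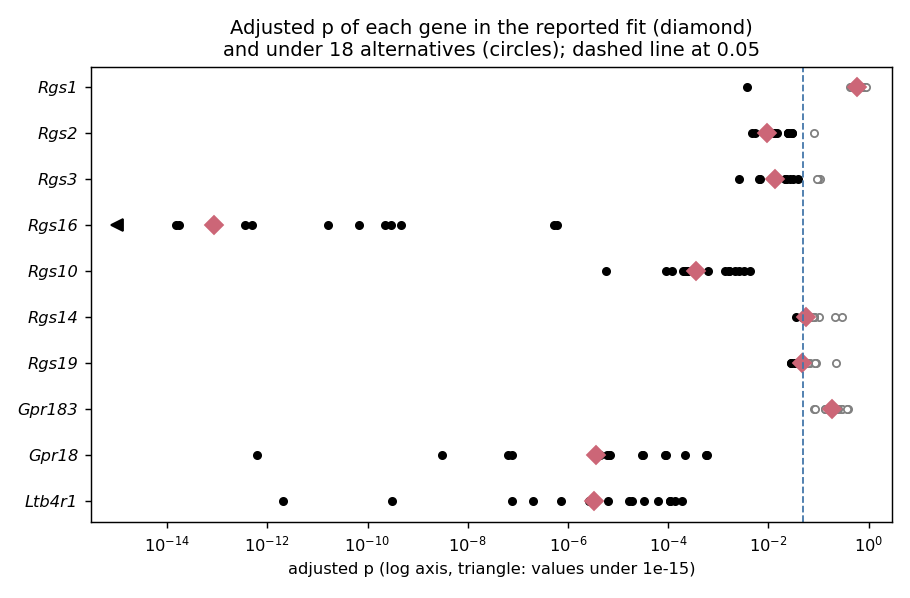
Adjusted p (log axis) of the 10 genes in the reported edgeR fit (diamonds) and under 18 other settings or left-out libraries (circles, filled under 0.05), with a dashed line at 0.05 and a triangle for values under 1e-15. Rgs16, Rgs10, Gpr18 and Ltb4r1 stay left of the line, Gpr183 stays right of it, and Rgs1, Rgs2, Rgs3, Rgs14 and Rgs19 have circles on both sides.

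The genes whose pattern over the 6 libraries was most like that of Rgs16 and of Ltb4r1 were found by the root mean square difference of log2 CPM, each gene centred on its own mean, among tested genes of at least 10 CPM. For Rgs16 they were Cyth3, an ARF exchange factor gene (difference 0.035), Cd6, a T cell co-receptor gene (0.061), and Blcap (0.063), with log2 fold changes of 0.98, 1.05 and 1.02. For Ltb4r1 they were Gm43305 (difference 0.13), the cytokine gene Lif (0.14) and S1pr1, a sphingosine 1-phosphate receptor gene (0.14), with log2 fold changes of -1.23, -1.24 and -1.25. The measure mostly reflects the difference between labels and is a description of these 6 libraries.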

How the data were processed

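Per the labels' protocols, TRIzol was used for total RNA and a VAHTS Universal V6 kit for the libraries. The submitters' processing notes name fastp, HISAT2, HTSeq and the build GRCm39, without roles, versions or settings. The authors deposited raw counts for 19390 gene symbols and FPKM. The deposited FPKM equal counts over column total and 1 fixed length per gene (relative tolerance 1e-06) in all 14184 genes with counts in every library. Each column matched a library by its title.

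The main test was edgeR 4.0.16 under R 4.3.3 (TMM, filterByExpr, glmQLFit, glmQLFTest on the label), with Benjamini-Hochberg adjustment over 12810 genes. The filter kept 99.96% of counts. CPM use TMM-scaled library sizes. SE was obtained by dividing the size of the log2 fold change by the root of F. The biological coefficient of variation, the spread beyond counting error, was 4.16%. The 18 alternatives covered scaling, DESeq2 1.42.0, limma 3.58.1 (voom, and log2 FPKM plus 0.1 or 1 at a mean FPKM of at least 1), filters, a robust fit, the replicate block, each library left out and removal of other-cell markers. The script was tested on simulated data, where 7.38% of calls were false. It recovered 56.1% of the 1.2-fold changes, 65.2% of the 1.5-fold and 87.5% of the 2-fold, so small changes can be missed. The changed genes were a smaller share than the share called in the real libraries, so these rates need not carry over to them. No pair of libraries was taken as a repeat deposit, since even the closest pair had a chi-square of 3.22 per degree of freedom.

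The members and lists were chosen with earlier results of these data known, so their shares called are descriptions. Named were all members, list genes with an adjusted p under 0.05 (at most 8 per direction), neighbours in RefSeq order of at least 1 CPM, and the 3 genes most like the called member of smallest p in each direction. Other genes were named as list members that did not pass or as markers, after their values were seen. For 2 genes under this rule values are not reported here. RefSeq and GENCODE tables of GRCm38 served for names, neighbours and sequences.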

Additional observations from a re-analysis of the deposited data

How the results depend on the processing

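The counts of members called, 3 higher and 4 lower, were 2 to 3 and 3 to 5 over the 18 alternatives and 2 to 3 and 3 to 5 over the fits that leave out 1 library. Rgs16, Rgs10, Gpr18 and Ltb4r1 were called in all 18 and Gpr183 in none; Rgs2 lost its call in 1, Rgs3 in 4 and Rgs19 in 7, while Rgs1 gained a call in 1 and Rgs14 in 2. Of 29 list genes called, 14 kept the call in every alternative, 15 lost it in at least 1 and 0 changed sign. Signs turned only in genes that did not pass: Uchl5 by upper-quartile scaling (0.00016) and on log2 FPKM with pseudocounts of 0.1 (0.0010) and 1 (0.0010), and, over the fits with 1 library left out, Rgs1 (-0.0095 without KO replicate 2 to 0.094 without KO replicate 3), Uchl5 (-0.051 to 0.057), Rusf1 (-0.00099 to 0.069) and Tcea2 (-0.087 to 0.25); the cause was not tested.

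The replicate numbers shared by the labels were not shown to pair the libraries: deviations of same-numbered libraries correlated by 0.057, -0.0097 and -0.030, and replicate 2 and 3 libraries did not correlate best with their own number. With the replicate number as a block, 2 members were higher and 4 lower, and over all genes 792 higher and 1177 lower in place of 926 and 1293. At upper-quartile scaling all-gene counts were 1091 higher and 1214 lower. Under TMM, RLE, upper-quartile and total count scaling the median log2 fold change of all genes was 0.0014, 0.0028, 0.012 and 0.011. Depth limits Ltb4r1 most, with 75 to 96 counts per KO library.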
